A study of Homo sapiens with 9 samples.

Results

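The cytosolic and mitochondrial heat shock proteins examined here are 10 genes chosen by symbol, namely HSPA1A, HSPA1B, HSPA8, HSPH1 and DNAJB1 of the HSP70 system, HSP90AA1 and HSP90AB1, the small heat shock protein HSPB1, and HSPD1 and HSPE1 of the mitochondrial chaperonin. All 10 had a row among the 61487 genes of the count table, and 8 of them passed the filter on low counts that left 14630 genes for testing. Their identifiers in the table are ENSG00000204389.10 (HSPA1A), ENSG00000204388.7 (HSPA1B), ENSG00000109971.14 (HSPA8), ENSG00000120694.20 (HSPH1), ENSG00000132002.9 (DNAJB1), ENSG00000080824.19 (HSP90AA1), ENSG00000096384.20 (HSP90AB1), ENSG00000106211.10 (HSPB1), ENSG00000144381.18 (HSPD1) and ENSG00000115541.11 (HSPE1). HSP70 proteins bind exposed hydrophobic stretches of unfolded clients in a cycle driven by ATP, in which J proteins such as DNAJB1 deliver clients and speed hydrolysis, and HSP110 proteins such as HSPH1 exchange the nucleotide and release the client. HSP90 takes over later steps for kinases, receptors and other clients, small heat shock proteins hold aggregating clients without using ATP, and HSP60 (HSPD1) with its lid HSP10 (HSPE1) folds proteins inside the mitochondrial matrix. Many of these genes are induced by the transcription factor HSF1, which binds heat shock elements, arrays of inverted GAA units, when unfolded protein accumulates, whereas HSPA8 and HSP90AB1 are the constitutive forms and are made in unstressed cells too.

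The RNA came from OVCAR4, a long-established line derived from a high-grade serous carcinoma of the ovary, in 3 groups with 3 libraries each. The first group was Pt-resistant OVCAR4 given EPZ015666, a small-molecule inhibitor of the arginine methyltransferase PRMT5, at 5 µM for 5 days. The other Pt-resistant libraries and the naive libraries came from cells given DMSO, the solvent, and all cells shared the line, the RPMI-1640 medium with serum and the labelled genotype WT. The Pt-resistant cells are a derivative made by continuous platinum exposure, so that a resistant state is represented by a single derivative, at 1 inhibitor dose and 1 time, and the libraries are wells of a plate, so that p-values reflect only well-to-well spread, and this may be technical. The deposited values are raw counts per gene, with 14320929 to 19114811 counts per library, and CPM (counts per unit of library total, in the usual scale of that name) are computed here after TMM scaling of the totals.

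Of 7 epithelial and serous markers 6 were expressed well enough to test, with summed levels of 3071 to 3114 CPM in inhibitor-treated libraries, 3707 to 3829 CPM in Pt-resistant libraries and 3759 to 4016 CPM in naive libraries, while WT1 was too low to test. Of 7 immune markers 3 passed the filter, and the whole list summed to 5.00 to 6.48 CPM in inhibitor-treated libraries, 0.541 to 0.727 CPM in Pt-resistant libraries and 1.48 to 2.14 CPM in naive libraries, with MS4A1 at 0 in all inhibitor-treated and Pt-resistant libraries. Of 8 fibroblast and endothelial markers 5 passed the filter, and the list summed to 94.7 to 110.4 CPM in inhibitor-treated libraries, 127 to 133 CPM in Pt-resistant libraries and 143 to 161.5 CPM in naive libraries, mostly from PECAM1 and CDH5, with no overlap between groups. The part of these markers in the results was not tested. PRMT5 itself, whose enzymatic activity and not mRNA is the target of the inhibitor, had 117 ± 10.6 CPM in inhibitor-treated cells, 117 ± 10.1 CPM in Pt-resistant cells and 121 ± 1.48 CPM in naive cells (SD, n = 3 each) and was not called in any comparison.

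Heat shock elements were looked for in the promoters of the members, since these are the letters through which HSF1 acts. All 10 members had a promoter entry in RefSeq (GRCh38.p14), in 16 windows because some have several start sites, and the 250 bases before each start were searched. A 3-unit element, GAANNTTCNNGAA or its reverse complement TTCNNGAANNTTC, was present in 155 of 35116 windows of all genes (0.441%). A 2-unit element, GAANNTTC or TTCNNGAA, each of which reads the same on both strands and which also lies within every 3-unit match, was present in 4067 windows (11.6%). A stretch that holds a match is shown for each member that had any, 5′ to 3′ on the strand of the gene, with the matched letters in capitals, first the 4 members with a 3-unit match and then the 4 with a 2-unit match alone.
HSPA8: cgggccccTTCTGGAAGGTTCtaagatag
HSP90AA1: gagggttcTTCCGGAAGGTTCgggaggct
HSP90AB1: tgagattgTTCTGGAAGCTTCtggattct
HSPD1: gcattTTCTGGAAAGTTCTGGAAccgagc
HSPA1A: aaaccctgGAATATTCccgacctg
HSPA1B: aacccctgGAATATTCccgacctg
HSPB1: taacgagaGAAGGTTCcagatgag
DNAJB1: gggctctgGAAGCTTCcgccggac

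In GRCh38.p14 these stretches lie at chr11:123062171-123062199 on the minus strand for HSPA8, chr14:102087112-102087140 on the minus strand for HSP90AA1, chr6:44247823-44247851 on the plus strand for HSP90AB1 and chr2:197500062-197500090 on the minus strand for HSPD1. Those with the shorter match lie at chr6:31815429-31815452 for HSPA1A and chr6:31827625-31827648 for HSPA1B, both on the plus strand, chr7:76302483-76302506 on the plus strand for HSPB1 and chr19:14518429-14518452 on the minus strand for DNAJB1. HSPH1 and HSPE1 had neither form in their windows, which says only that these letters are not within the 250 bases searched. HSP90AA1, HSP90AB1, HSPD1 and DNAJB1 have several windows, and those without a stretch shown had no match. The shares over all genes are per window, so they are not the shares to set beside counts of members. The HSPD1 stretch lies at the far end of its window, at -250 to -222, and downstream of the other start site of HSPD1 at 197500274. A match is a string of letters and not a measured binding site.

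HSPA1A and HSPA1B, the near-identical heat-inducible HSP70 genes, were listed at 0 counts in all 9 libraries, and so no comparison of them was made. The same held for HSPA1L, the testis HSP70 gene beside them on chromosome 6. Counting these, 12 of the 19 genes that GENCODE 29 places within 60000 bases of HSPA1A were at 0. VARS had 6523 counts and NEU1 had 4461 counts over the 9 libraries. The 12 include small RNA, antisense and readthrough entries, such as RNU6-850P, SNORD48, SAPCD1-AS1 and MSH5-SAPCD1. The share of all genes at 0 was not worked out, and only 14630 of 61487 genes passed the filter on low counts. This count therefore does not set the region apart from others. Genes that every cell uses, CSNK2B, a subunit of casein kinase, and DDX39B, an RNA helicase of mRNA export, were also listed at 0 (picked after their values were seen). Cut into stretches of 50 bases, 72.6% of the HSPA1A transcript and 73.5% of the HSPA1B transcript of GENCODE 29 recur in the transcript of another gene, mostly in each other. In addition, 36.5% of the exon bases of HSPA1B overlap another annotated gene on the same strand. STAR's gene counts omit reads with several alignments and reads that fall on more than 1 gene, and the part of this in the zeros was not tested, so that a 0 here cannot be read as absence of HSP70 mRNA.

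**Figure D1:**
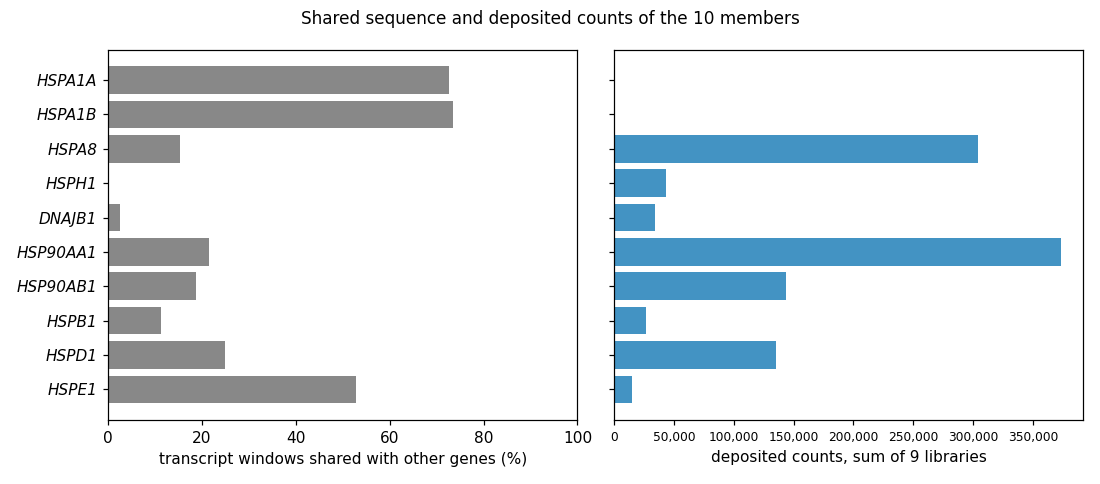
Left, the share of 50-base stretches of each member's GENCODE 29 transcript that recur on either strand in transcripts of other genes, including overlapping genes, in percent. Right, the sum of deposited counts over the 9 libraries. HSPA1A and HSPA1B share 72.6% and 73.5% of their stretches and have 0 counts, and HSPH1 shares 0%. HSPE1 shares 52.9%, including 25.75% of its stretches that are shared with the overlapping gene HSPD1.

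The other members could be counted, with different certainty. No stretch of HSPH1 recurred elsewhere, and 2.57% of DNAJB1, 11.4% of HSPB1, 15.4% of HSPA8, 18.8% of HSP90AB1, 21.4% of HSP90AA1 and 24.98% of HSPD1 did. For each of these, the gene sharing most has a pseudogene name. For HSPA8 this gene, HSPA8P1, held only 6.34% of the stretches, and for HSPD1, HSPD1P1 held 16.79%. HSPE1 shared 52.9% of its stretches, counted on either strand. These include 25.75% of its stretches that are shared with HSPD1. The exons of HSPE1 overlap those of HSPD1 on the opposite strand over 14.2% of their bases, so these shares are not separate. The strand column taken from STAR is not given in the sources read, so that the values of HSPE1 are the least certain. Per kilobase of exon, naive cells had 432 ± 38.1 CPM of HSPA8, 397 ± 37.6 CPM of HSP90AA1 and 342 ± 26.7 CPM of HSP90AB1 (SD, n = 3), and for neighbours in this order the ranges of mean ± SD overlapped. The levels per kilobase in naive cells continued with 208 ± 5.42 CPM of HSPD1, 105 ± 13.3 CPM of HSPB1, 57.9 ± 3.81 CPM of DNAJB1, 43.6 ± 6.67 CPM of HSPE1 and 26.8 ± 1.07 CPM of HSPH1, and the ranges of mean ± SD of these neighbours did not overlap. By this measure HSP90AA1 stood first in inhibitor-treated cells with 573 ± 65.5 CPM per kilobase, ahead of HSPA8 with 429 ± 33.2 CPM per kilobase. HSPH1 again came last with 43.7 ± 0.744 CPM per kilobase. The length used is that of all annotated exons of a gene joined, 4.849 kb for HSPA8, 5.248 kb for HSP90AA1 and 1.977 kb for HSPE1. Their longest protein-coding transcripts have only 2463, 3510 and 950 bases. The order of the genes and the overlaps between them therefore depend on the length chosen.

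Addition of the PRMT5 inhibitor to Pt-resistant cells was accompanied by higher HSPH1, HSP90AA1, HSPB1 and HSPE1 mRNA, by 1.29-fold to 1.44-fold, and by slightly lower HSPD1, while HSPA8, DNAJB1 and HSP90AB1 did not pass the test. Of the 8 tested members 4 rose and 1 fell, where 31.9% of all tested genes rose and 30.5% fell in this comparison (adjusted p below 0.05 in edgeR's quasi-likelihood test, with Benjamini-Hochberg adjustment over all 14630 genes). In Pt-resistant against naive cells 1 of 8 rose and 1 fell, against a background of 29.8% higher and 29.4% lower. In inhibitor-treated against naive cells 4 rose and 1 fell, against 32.2% higher and 31.2% lower among all genes. So large a background means that a call in itself sets no member apart from other genes. In these bulk libraries, a change in the number of cells in a given state and a change of mRNA per cell cannot be told apart.

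The changes of the members were small. None of the 8 reached 2-fold in any comparison, a size passed together with the test by 17.9% of all genes for inhibitor against DMSO, by 15.9% for Pt-resistant against naive and by 19.8% for inhibitor-treated against naive. The median size of the log2 fold change over the 8 members was 0.27 for inhibitor against DMSO, 0.13 for Pt-resistant against naive and 0.24 for inhibitor-treated against naive. Over all tested genes it was 0.43, 0.39 and 0.44 in these comparisons. Since the comparisons share libraries, their values are given side by side and are not independent of each other.

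**Figure D2:**
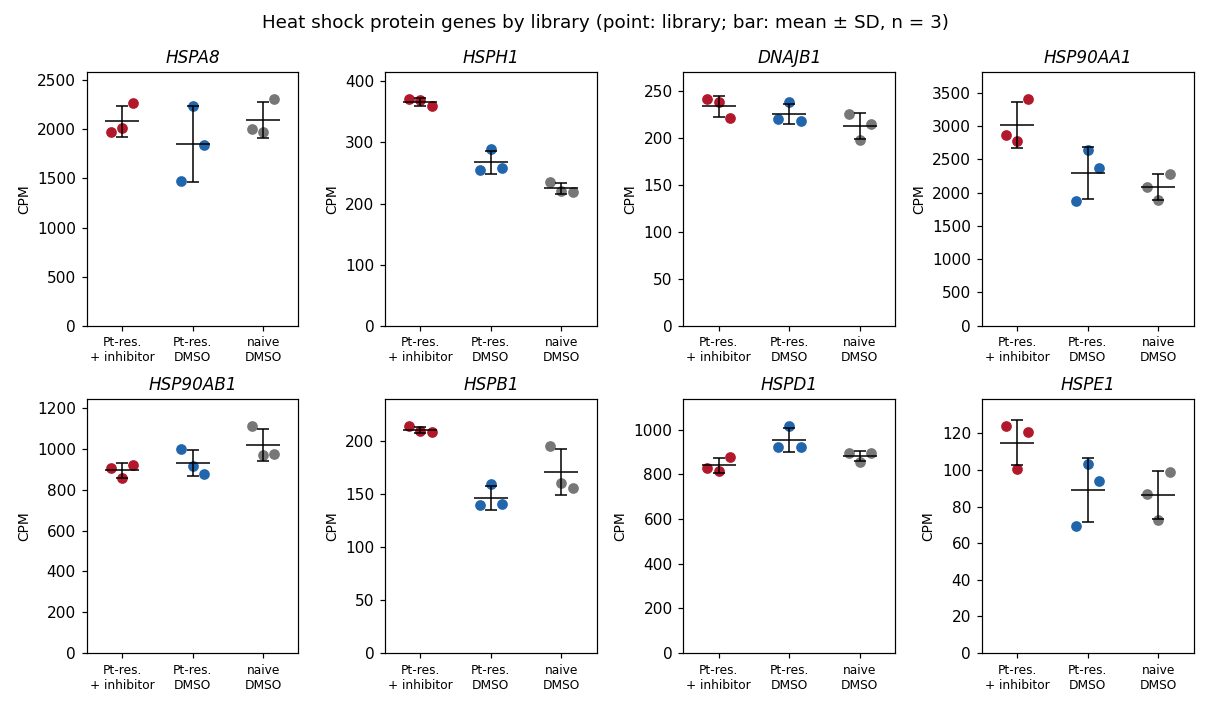
Expression in CPM (axes from 0) of the 8 members with counts, in inhibitor-treated Pt-resistant, Pt-resistant and naive libraries from left to right, where points are libraries in replicate order and bars give the mean ± SD (n = 3). All 3 inhibitor-treated libraries of HSPH1 (359 to 371 CPM) and HSPB1 (208 to 214 CPM) lie above all other libraries.

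HSPA8, the constitutive HSP70 (HSC70), had 1968, 2008 and 2264 CPM in the inhibitor-treated libraries, 1472, 2240.3 and 1837 CPM in the Pt-resistant libraries and 2006, 1971 and 2307 CPM in the naive libraries. The groups overlapped, and the Pt-resistant libraries alone spanned the range from the lowest value of all to nearly the highest. Its log2 fold change was 0.17 (SE 0.11, edgeR adjusted p = 0.19) for inhibitor against DMSO, -0.18 (SE 0.11, edgeR adjusted p = 0.17) for Pt-resistant against naive and -0.01 (SE 0.11, edgeR adjusted p = 0.94) for inhibitor-treated against naive. The 95% intervals of these log2 fold changes reached from -0.06 to 0.40, from -0.41 to 0.05 and from -0.24 to 0.22, which leaves room for changes of about the size seen in other members. Pt-resistant replicate 2 decided these calls, since without it HSPA8 was higher with inhibitor (log2 fold change 0.33, edgeR adjusted p = 0.0083) and lower in Pt-resistant than in naive cells (-0.35, edgeR adjusted p = 0.0066). Without a filter on low counts it was also called lower in Pt-resistant than in naive cells (-0.19, edgeR adjusted p = 0.039).

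HSPH1, the HSP110 exchange factor, was the member with the clearest steps between the groups, with 371, 369 and 359 CPM in the inhibitor-treated libraries, 254, 289 and 258 CPM in the Pt-resistant libraries and 236, 221 and 219 CPM in the naive libraries. No 2 groups overlapped. It rose 1.37-fold with the inhibitor (log2 fold change 0.46, SE 0.075, edgeR adjusted p = 1.3e-05) and was 1.63-fold higher in inhibitor-treated than in naive cells (0.70, SE 0.075, edgeR adjusted p = 2.1e-08). The smaller step, 1.19-fold higher in Pt-resistant than in naive cells (0.25, SE 0.075, edgeR adjusted p = 0.0069), was not called when Pt-resistant replicate 2 was left out (0.18, edgeR adjusted p = 0.063). HSPH1 is also the member with no shared stretches and no heat shock element in the window searched.

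DNAJB1, the J protein that works with HSPA1A and HSPA8, had 242, 239 and 221 CPM in the inhibitor-treated libraries, 221, 238 and 218 CPM in the Pt-resistant libraries and 225, 198 and 215 CPM in the naive libraries, with overlap between all groups. Its log2 fold change was 0.05 (95% interval -0.11 to 0.21) for inhibitor against DMSO, 0.09 (-0.07 to 0.24) for Pt-resistant against naive and 0.14 (-0.02 to 0.30) for inhibitor-treated against naive. None of these passed the test, with edgeR adjusted p = 0.57, 0.35 and 0.12, and the highest upper bound of these intervals was 1.23-fold. DNAJB1 is among the genes that HSF1 induces most strongly in heat-shocked human cells.

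HSP90AA1, the stress-inducible cytosolic HSP90 (HSP90 alpha), had 2857, 2769 and 3403 CPM in the inhibitor-treated libraries, 1867, 2644 and 2366 CPM in the Pt-resistant libraries and 2080, 1891 and 2286 CPM in the naive libraries. The inhibitor-treated libraries lay above all others, whereas Pt-resistant and naive libraries overlapped. It rose 1.31-fold with the inhibitor (log2 fold change 0.39, SE 0.11, edgeR adjusted p = 0.0030) and was 1.44-fold higher in inhibitor-treated than in naive cells (0.53, SE 0.11, edgeR adjusted p = 1.7e-04). For Pt-resistant against naive the log2 fold change was 0.14 (SE 0.11, edgeR adjusted p = 0.29), and this became a call when Pt-resistant replicate 1, the lowest library, was left out (0.26, edgeR adjusted p = 0.033).

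HSP90AB1, the constitutive HSP90 beta, did not follow HSP90AA1. It had 906, 855 and 922 CPM in the inhibitor-treated libraries, 1001, 915 and 875 CPM in the Pt-resistant libraries and 1110.5, 969 and 976 CPM in the naive libraries. Its log2 fold change was -0.06 (95% interval -0.22 to 0.11, edgeR adjusted p = 0.56) for inhibitor against DMSO and -0.13 (-0.30 to 0.04, edgeR adjusted p = 0.17) for Pt-resistant against naive. The groups did not overlap between inhibitor-treated and naive cells, where HSP90AB1 was lower (-0.19, SE 0.081, edgeR adjusted p = 0.046). That call is at the threshold, and it was lost without naive replicate 1 (edgeR adjusted p = 0.21) and without inhibitor-treated replicate 1, 2 or 3 (edgeR adjusted p = 0.083, 0.15 and 0.057).

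Both HSP90 genes hold a 3-unit element in the window of a start site, shown above. With the inhibitor HSP90AA1 was called higher and HSP90AB1 was not called, so that the balance between their mRNAs moved. The count of HSP90AA1 divided by that of HSP90AB1, which depends on transcript length and is used only between libraries, was 3.15, 3.24 and 3.69 in the inhibitor-treated libraries, 1.86, 2.89 and 2.71 in the Pt-resistant libraries and 1.87, 1.95 and 2.34 in the naive libraries. The inhibitor-treated libraries lay above all others in this ratio, which was looked at after the values of both genes were known and was not tested.

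HSPB1 (HSP27), the small heat shock protein, had 214, 209 and 208 CPM in the inhibitor-treated libraries, 139.5, 159.6 and 141 CPM in the Pt-resistant libraries and 196, 161 and 156 CPM in the naive libraries. The inhibitor-treated libraries were close together and above all others. It rose 1.44-fold with the inhibitor (log2 fold change 0.52, SE 0.086, edgeR adjusted p = 1.3e-05), the largest fold among the members in that comparison, and was 1.23-fold higher in inhibitor-treated than in naive cells (0.30, SE 0.086, edgeR adjusted p = 0.0038). HSPB1 was lower in Pt-resistant than in naive cells (-0.22, SE 0.086, edgeR adjusted p = 0.031), although these groups overlapped. The call was lost without naive replicate 1, the highest naive library (-0.11, edgeR adjusted p = 0.28), without Pt-resistant replicate 1 (-0.20, edgeR adjusted p = 0.078) and without Pt-resistant replicate 3 (-0.19, edgeR adjusted p = 0.11).

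**Figure D3:**
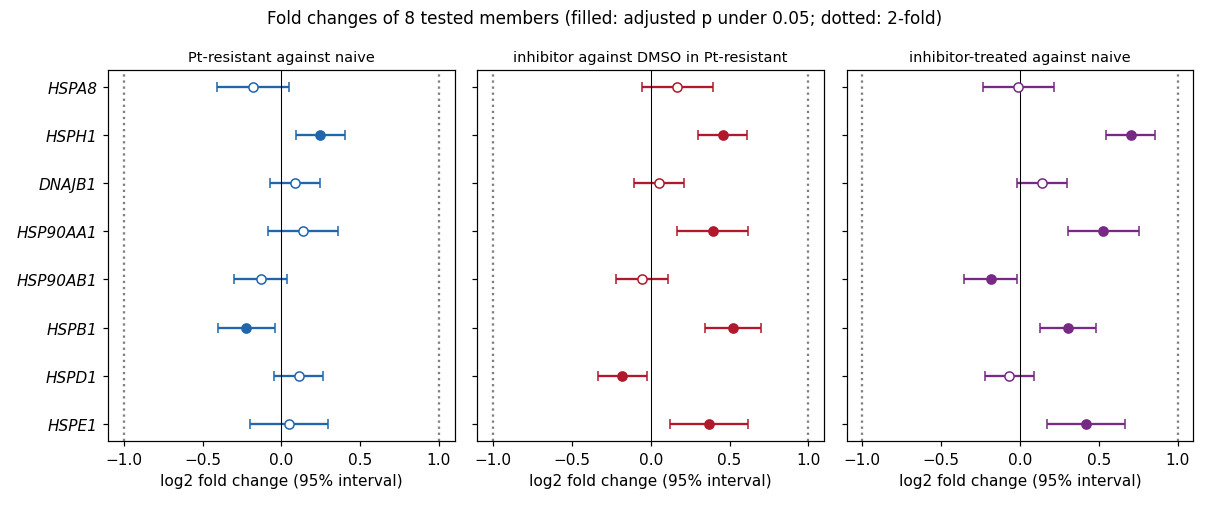
Log2 fold changes with 95% intervals of the 8 tested members (rows) in the 3 comparisons (panels), where filled points passed an adjusted p of 0.05 and dotted lines mark a 2-fold change. HSPH1, HSP90AA1, HSPB1 and HSPE1 are filled and right of 0 both for inhibitor against DMSO and for inhibitor-treated against naive, and no interval reaches a dotted line.

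HSPD1 and HSPE1, which encode the barrel and the lid of the mitochondrial chaperonin, lie head to head on chromosome 2 and share a bidirectional promoter region. HSPD1 had 829, 815 and 879 CPM in the inhibitor-treated libraries, 921, 1015 and 921 CPM in the Pt-resistant libraries and 895, 856 and 896 CPM in the naive libraries. The Pt-resistant libraries lay above those of both other groups. With the inhibitor HSPD1 fell by 0.18 on the log2 scale (SE 0.075, edgeR adjusted p = 0.042), a call lost without Pt-resistant replicate 2 (-0.13, edgeR adjusted p = 0.18), without inhibitor-treated replicate 1 (-0.17, edgeR adjusted p = 0.11) and without inhibitor-treated replicate 2 (-0.16, edgeR adjusted p = 0.12), and also without a filter on low counts (-0.18, edgeR adjusted p = 0.061). Its log2 fold change was 0.11 (edgeR adjusted p = 0.22) for Pt-resistant against naive and -0.07 (edgeR adjusted p = 0.43) for inhibitor-treated against naive.

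HSPE1 had 124, 101 and 120.4 CPM in the inhibitor-treated libraries, 69.4, 103 and 94.0 CPM in the Pt-resistant libraries and 87.0, 72.5 and 98.8 CPM in the naive libraries. It rose 1.29-fold with the inhibitor (log2 fold change 0.37, SE 0.12, edgeR adjusted p = 0.0094), where the groups overlapped, and was not called without Pt-resistant replicate 1 (0.22, edgeR adjusted p = 0.071). In inhibitor-treated against naive cells the groups did not overlap and HSPE1 was 1.33-fold higher (0.42, SE 0.12, edgeR adjusted p = 0.0040). For Pt-resistant against naive the log2 fold change was 0.05 (95% interval -0.20 to 0.29, edgeR adjusted p = 0.75), and its sign turned when naive replicate 2 (-0.07) or Pt-resistant replicate 2 (-0.08) was left out. The count of HSPE1 divided by that of HSPD1 was 0.149, 0.124 and 0.137 in the inhibitor-treated libraries, 0.0754, 0.102 and 0.102 in the Pt-resistant libraries and 0.0972, 0.0847 and 0.110 in the naive libraries, a ratio also looked at after the values were known and not tested.

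Pt-resistant replicate 1 held the lowest value of all 9 libraries for HSPA8, HSP90AA1 and HSPE1, and the summed members made up 0.599% of its counts, against 0.752% and 0.676% in the other Pt-resistant libraries. In the inhibitor-treated libraries this share was 0.736%, 0.717% and 0.820%, and in the naive libraries it was 0.709%, 0.644% and 0.717%. Mitochondrially encoded mRNAs, an indicator of library composition, took 6.26% to 8.32% of counts in inhibitor-treated libraries, 4.45% to 5.19% in Pt-resistant libraries and 5.97% to 7.82% in naive libraries. Immediate early genes, which can respond to handling within minutes, summed to 696 to 786 CPM, 1086 to 1193 CPM and 922 to 1179 CPM in these groups. The sum mixes genes that moved apart, since its member ATF3 had means of 19.3, 226 and 24.9 CPM. Of the 10 genes 4 were higher and 3, namely FOS, EGR1 and IER2, were lower in Pt-resistant than in naive cells. Over all tested genes these shares were 29.8% and 29.4%. The part of mitochondrially encoded mRNAs and immediate early genes in the differences between the members was not tested.

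The regulators of the heat shock response were read next, from lists chosen for function but with earlier results of these data known. Of 5 tested regulators 2 rose with the inhibitor, beside 31.9% of all tested genes. For Pt-resistant against naive 3 were higher, beside 29.8% of all tested genes. For inhibitor-treated against naive 3 were higher, beside 32.2% of all tested genes, and in each comparison the other regulators were not called. HSF1 mRNA was 43.5, 42.0 and 40.0 CPM in the inhibitor-treated libraries, 45.1, 41.0 and 40.3 CPM in the Pt-resistant libraries and 42.3, 47.0 and 44.0 CPM in the naive libraries, and it was not called in any comparison (edgeR adjusted p = 0.92 for inhibitor against DMSO). Activity of HSF1 is set largely by release from chaperones, trimerisation and phosphorylation, none of which this measurement reads. IER5, which brings the phosphatase PP2A to HSF1, had 105, 86.7 and 101 CPM in the inhibitor-treated libraries, 45.4, 44.8 and 47.9 CPM in the Pt-resistant libraries and 30.9, 28.0 and 26.3 CPM in the naive libraries. It rose by a log2 fold change of 1.08 with the inhibitor (edgeR adjusted p = 2.0e-10) and was higher in Pt-resistant than in naive cells by 0.70 (edgeR adjusted p = 6.9e-07), with no overlap. HSF2, a related factor, was higher in Pt-resistant than in naive cells (0.28, edgeR adjusted p = 0.019), a call lost without naive replicate 1 (edgeR adjusted p = 0.12) and without Pt-resistant replicate 2 or 3 (edgeR adjusted p = 0.10 and 0.064). HSBP1, a small protein that binds HSF1 and acts as a negative regulator, had 156, 140.3 and 153 CPM in the inhibitor-treated libraries, 119, 138 and 131 CPM in the Pt-resistant libraries and 90.8, 87.2 and 105 CPM in the naive libraries, with no overlap between groups. It was higher in Pt-resistant than in naive cells (0.45, edgeR adjusted p = 6.7e-05) and in inhibitor-treated than in naive cells (0.67, edgeR adjusted p = 2.8e-07). Its call for inhibitor against DMSO (0.21, edgeR adjusted p = 0.028) was lost with scaling by library size alone (edgeR adjusted p = 0.057) and without Pt-resistant replicate 1 or 3 (edgeR adjusted p = 0.12 and 0.056) or inhibitor-treated replicate 1 or 3 (edgeR adjusted p = 0.0999 and 0.080).

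Of 11 tested genes that HSF1 is known to induce and that are not members, 6 rose and 3 fell with the inhibitor, 7 were higher and 1 was lower in Pt-resistant than in naive cells, and 8 were higher and 1 was lower in inhibitor-treated than in naive cells. Their median log2 fold change was 0.27, 0.46 and 0.53 in these comparisons, beside 0.0057, 0.010 and 0.00094 over all tested genes. Of all tested genes, 31.9% were higher and 30.5% lower, 29.8% and 29.4%, and 32.2% and 31.2% in the same order. BAG3, which couples HSP70 to selective autophagy, had 65.7, 62.0 and 65.8 CPM in the inhibitor-treated libraries, 56.4, 49.8 and 50.4 CPM in the Pt-resistant libraries and 34.4, 33.5 and 33.3 CPM in the naive libraries. BAG3 therefore stepped up between groups that did not overlap, by a log2 fold change of 0.31 (edgeR adjusted p = 0.0019) for inhibitor against DMSO and 0.63 (edgeR adjusted p = 5.7e-07) for Pt-resistant against naive. HSPA4L, an HSP110 protein like HSPH1, rose by 0.75 with the inhibitor (edgeR adjusted p = 1.6e-07). DNAJB4, a J protein close to DNAJB1 in sequence, was higher in Pt-resistant than in naive cells by 1.84 (edgeR adjusted p = 3.7e-13). ZFAND2A, an arsenite-inducible proteasome factor, went the other way with the inhibitor (-0.72, edgeR adjusted p = 5.2e-06).

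**Figure D4:**
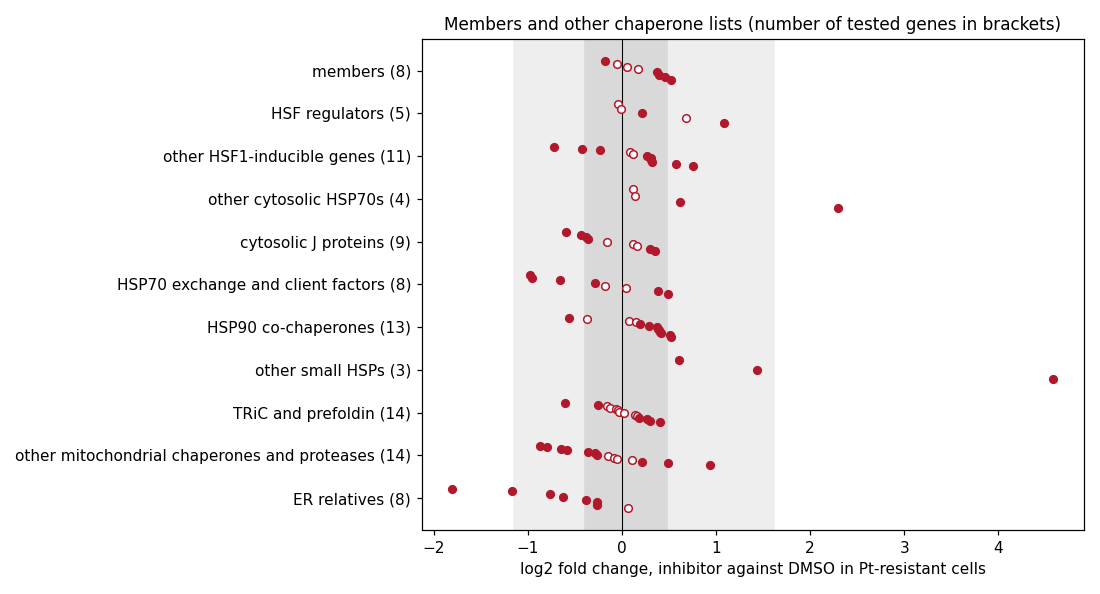
Log2 fold change of each tested gene for inhibitor against DMSO in Pt-resistant cells (horizontal axis), by list (rows, with the number of tested genes), where filled points passed an adjusted p of 0.05. The dark and light bands hold the middle 50% and 90% of all 14630 tested genes, from -0.39 to 0.48 and from -1.15 to 1.62, and the 8 members lie within the light band.

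Several partners of HSP70 had larger log2 fold changes than the tested HSP70 members. HSPA2, an HSP70 gene best known from testis, had 16.3, 17.4 and 17.6 CPM in the inhibitor-treated libraries, 2.89, 4.31 and 3.17 CPM in the Pt-resistant libraries and 21.9, 13.1 and 20.1 CPM in the naive libraries. It was lower in Pt-resistant than in naive cells (log2 fold change -2.41, edgeR adjusted p = 3.7e-11) and rose with the inhibitor (2.30, edgeR adjusted p = 8.8e-11) to values that overlapped those of naive cells. The BAG proteins BAG1 and BAG2, which exchange the nucleotide of HSP70 and steer clients to or from degradation, had the opposite pattern, with log2 fold changes of 0.80 and 0.82 for Pt-resistant against naive (edgeR adjusted p = 7.9e-09 and 1.5e-08) and of -0.96 and -0.98 for inhibitor against DMSO (edgeR adjusted p = 3.7e-10 and 7.0e-10). Over the list of 8 exchange and client factors 2 rose and 4 fell with the inhibitor. Of 9 other cytosolic J proteins 2 rose and 4 fell, where 31.9% of all tested genes rose and 30.5% fell. DNAJA1, a farnesylated J protein that pairs with HSPA8, was 0.92 higher in Pt-resistant than in naive cells on the log2 scale (edgeR adjusted p = 2.6e-08).

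**Figure D5:**
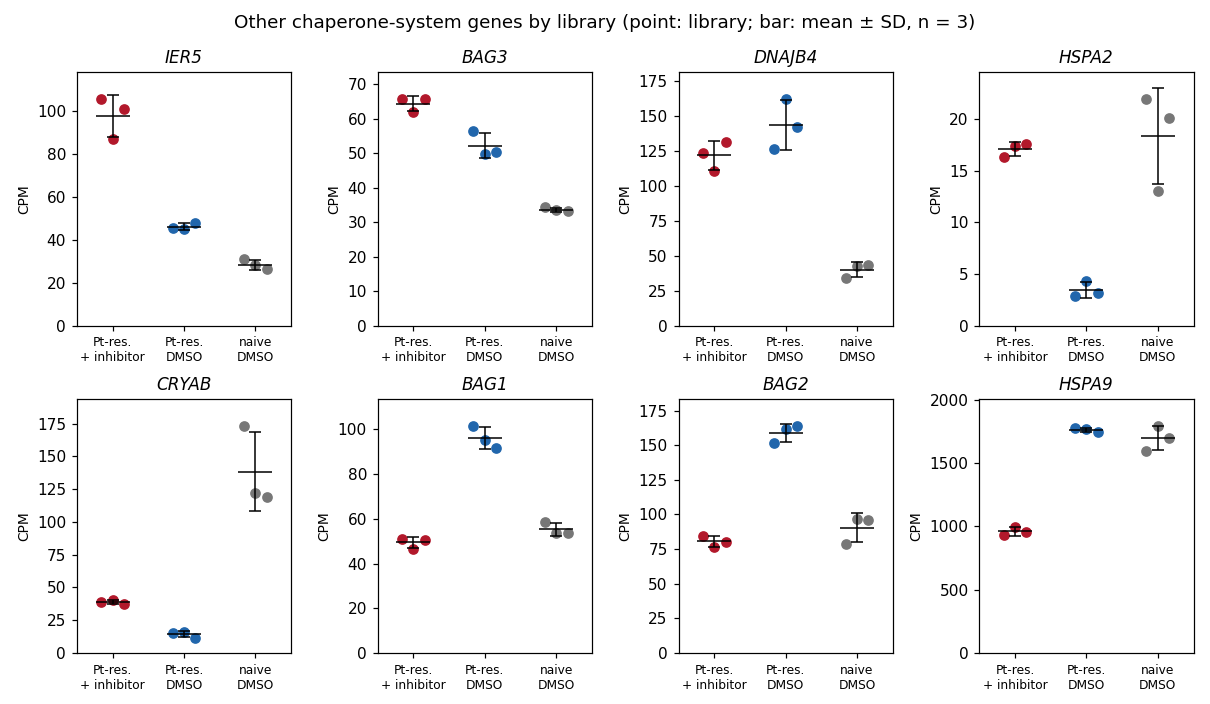
Expression in CPM (axes from 0) of 8 genes of the chaperone system that are not members, in inhibitor-treated Pt-resistant, Pt-resistant and naive libraries from left to right, where points are libraries and bars give the mean ± SD (n = 3). IER5 and BAG3 step down from left to right, HSPA2 is lowest in Pt-resistant cells at 2.89 to 4.31 CPM, and BAG1 and BAG2 are highest there.

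Of 13 tested co-chaperones of HSP90, 9 rose and 1 fell with the inhibitor, and 8 or 9 rose whichever library was left out. Among them were SUGT1, an adaptor for leucine-rich repeat clients (log2 fold change 0.41, edgeR adjusted p = 2.3e-04), NUDC (0.52, edgeR adjusted p = 3.0e-05) and the immunophilin FKBP5 (0.51, edgeR adjusted p = 1.8e-04). CDC37L1 fell by 0.57 on the log2 scale (edgeR adjusted p = 9.3e-07). Among the 13, 6 were higher and 2 were lower in Pt-resistant than in naive cells, and 10 were higher in inhibitor-treated than in naive cells while the other 3 were not called. For the cytosolic chaperonin TRiC and its partner prefoldin, which fold actin and tubulin, 4 of 14 genes rose and 2 fell with the inhibitor. In Pt-resistant against naive cells 6 of them were higher and 1 was lower. Over all tested genes 31.9% rose and 30.5% fell with the inhibitor. The shares were 29.8% higher and 29.4% lower for Pt-resistant against naive, and 32.2% higher and 31.2% lower for inhibitor-treated against naive.

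The other tested small heat shock proteins had larger fold changes than HSPB1 for inhibitor against DMSO. CRYAB (alpha B-crystallin) had 38.7, 40.4 and 37.2 CPM in the inhibitor-treated libraries, 15.4, 16.1 and 11.5 CPM in the Pt-resistant libraries and 173, 122 and 119 CPM in the naive libraries. It was lower in Pt-resistant than in naive cells (log2 fold change -3.27, edgeR adjusted p = 1.0e-15), rose with the inhibitor (1.44, edgeR adjusted p = 2.5e-09) and stayed below the naive level in inhibitor-treated cells (-1.84, edgeR adjusted p = 4.1e-12). HSPB8, the partner of BAG3, rose by 0.61 with the inhibitor (edgeR adjusted p = 1.8e-06). HSPB3, a muscle small heat shock protein, was near the detection limit in DMSO, with 4, 2 and 1 counts in Pt-resistant libraries, and had 63, 35 and 61 counts in inhibitor-treated libraries. These 3 were the only other small heat shock proteins of the list that passed the filter, out of 7 with a row.

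Among the other mitochondrial chaperones, several had larger fold changes than HSPD1 and HSPE1. HSPA9 (mortalin), the HSP70 of the matrix and of protein import, had 931, 997 and 955 CPM in the inhibitor-treated libraries, 1776, 1769 and 1744 CPM in the Pt-resistant libraries and 1597, 1790.0 and 1700.3 CPM in the naive libraries. It fell by 0.88 on the log2 scale with the inhibitor (edgeR adjusted p = 8.5e-10) and did not pass the test for Pt-resistant against naive (0.06, edgeR adjusted p = 0.54). Of 14 tested mitochondrial chaperones and proteases outside the members, 3 rose and 7 fell with the inhibitor, beside 31.9% and 30.5% of all tested genes. CLPB, a matrix disaggregase, was among the 3 that rose (0.94, edgeR adjusted p = 1.4e-08), and DNAJA3, the matrix J protein, was among those that fell (-0.79, edgeR adjusted p = 6.7e-06).

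Relatives of the members in the endoplasmic reticulum, which answer to the unfolded protein response and not to HSF1, went in the other direction from HSPH1, HSP90AA1 and HSPB1. Of 8 tested, 7 fell with the inhibitor and the other was not called, and 7 fell whichever library was left out. HSPA5 (BiP), the HSP70 of that compartment, fell by 1.81 on the log2 scale (edgeR adjusted p = 1.1e-13), and HYOU1, its HSP110-like exchange factor and thus the counterpart of HSPH1, fell by 1.17 (edgeR adjusted p = 1.8e-11). For Pt-resistant against naive, 4 of them were called higher and 2 lower. Over the 81 tested chaperone genes outside the members and the endoplasmic reticulum, 33 rose and 21 fell with the inhibitor. For Pt-resistant against naive 33 were higher and 14 lower, and for inhibitor-treated against naive 41 were higher and 15 lower. Of all tested genes, 31.9% were higher and 30.5% lower, 29.8% and 29.4%, and 32.2% and 31.2% in the same order.

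For each tested member, the gene outside the set whose log2 CPM followed it most closely over the 9 libraries was taken, as a description without a test, since the 9 points are 3 groups of 3 and share their libraries and scaling. Closest to HSPH1 was MRAP2 (Pearson r = 0.994), to HSP90AA1 SS18L2 (r = 0.986), to HSPE1 H2AZ1 (r = 0.984), to HSPB1 CHKA (r = 0.982) and to HSPD1 MRPL20, a protein of the mitochondrial ribosome (r = 0.971). The values for DNAJB1 with UBAC1 (r = 0.967), HSP90AB1 with RPL18, a ribosomal protein (r = 0.948), and HSPA8 with YBX2 (r = 0.920) were lower. Between members, HSP90AA1 and HSPE1 followed each other most closely (r = 0.932), ahead of HSPH1 and HSP90AA1 (r = 0.846), whereas HSPH1 and HSP90AB1 ran against each other (r = -0.633).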

How the data were processed

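RNA of 9 OVCAR4 libraries was analysed, 3 per group. Per the labels and the methods of the study, libraries were directional (NEBNext Ultra II), and the authors ran FastQC, mapped with STAR in its gene-count mode and deposited raw counts per gene. Not given in the sources used here are the build, annotation, strand column and tool versions behind the counts. IDs were named from a symbol table, which matched 61369 of 61487 genes. Overlaps and shared stretches come from GENCODE 29, promoters from RefSeq.

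In R 4.3.3, edgeR 4.0.16 filtered genes (filterByExpr, minimum count 10), which left 14630 genes with 99.9% of counts, scaled libraries by TMM and fitted 1 quasi-likelihood model over all 9 libraries, with Benjamini-Hochberg adjustment over all tested genes in each of 3 comparisons and a threshold of 0.05. Standard errors are the log2 fold change over the root of F. The biological coefficient of variation was 7.66%, and depth is given per library in the text. Within-group library pairs differed by more than sampling noise, so none was counted as a duplicate. The fit was tested on simulated data. The members, gene lists and comparisons were chosen with earlier results of these data known. Named genes are all members, PRMT5, HSF1, HSF2, BAG3 and HSPA5, per list up to 3 genes in each direction with the largest called, non-overlapping change, and the closest gene by correlation. CSNK2B, DDX39B and the neighbours of HSPA1A were named after their values were seen. Alternatives were RLE scaling, library size alone, DESeq2 1.42.0, limma-voom (limma 3.58.1), other filters, a fit of 2 groups at a time, a replicate block and each library left out.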

Additional observations from a re-analysis of the deposited data

How the results depend on the processing

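The calls of HSPH1, HSP90AA1 and HSPB1 as higher both for inhibitor against DMSO and for inhibitor-treated against naive, and of HSPE1 as higher for inhibitor-treated against naive, were kept under every alternative run. Each of RLE scaling, library size alone, DESeq2, limma-voom, a filter at 1 CPM in 3 libraries, the fit on only the groups compared and the replicate block called the same number of members as the fit reported, 5, 2 and 5. Without a filter on low counts HSPA8 became a call for Pt-resistant against naive (-0.19, edgeR adjusted p = 0.039) and HSPD1 lost its call for inhibitor against DMSO (-0.18, edgeR adjusted p = 0.061). With each library left out in turn, the number of members called ran from 1 to 2 for Pt-resistant against naive, from 4 to 5 for inhibitor against DMSO and from 4 to 5 for inhibitor-treated against naive.

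Over the libraries left out, the log2 fold changes for Pt-resistant against naive ranged from -0.35 to -0.048 for HSPA8, 0.18 to 0.28 for HSPH1, 0.030 to 0.13 for DNAJB1, 0.016 to 0.26 for HSP90AA1, -0.20 to -0.065 for HSP90AB1, -0.29 to -0.11 for HSPB1, 0.057 to 0.13 for HSPD1 and -0.080 to 0.19 for HSPE1. For inhibitor against DMSO they ranged from 0.033 to 0.33 for HSPA8, 0.025 to 0.092 for DNAJB1, -0.10 to 0.0036 for HSP90AB1, -0.21 to -0.13 for HSPD1 and 0.22 to 0.49 for HSPE1. For inhibitor-treated against naive they ranged from -0.073 to 0.062 for HSPA8, 0.083 to 0.18 for DNAJB1, -0.23 to -0.12 for HSP90AB1 and -0.10 to -0.045 for HSPD1. PRMT5 and HSF1, which were not called, changed sign as well, with ranges of -0.12 to 0.0077 for PRMT5 in Pt-resistant against naive, -0.068 to 0.069 for PRMT5 and -0.046 to 0.044 for HSF1 in inhibitor against DMSO, and -0.10 to 0.020 for PRMT5 in inhibitor-treated against naive. HSF2 for inhibitor against DMSO turned to 0.010 without Pt-resistant replicate 2. The cause was not tested.

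The replicate block gave 9185 genes called for inhibitor against DMSO, 8688 for Pt-resistant against naive and 9319 for inhibitor-treated against naive, beside 9136, 8651 and 9276 without it, and changed no call of a member. What a shared replicate number stands for is not given in the labels. Deviations of same-numbered libraries correlated at -0.076 to 0.0995. With 3 libraries a group, these values cannot show whether same-numbered libraries shared plating or preparation. Counts of list genes with each library left out were added after seeing the data. Summing HSPA1A and HSPA1B into 1 feature gave no value, as both are at 0. Library totals of 14320929 to 19114811 counts leave counting error small for the 8 tested members, and the spread between wells sets their precision.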
